A study of Homo sapiens with 6 samples.

Results

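Genes that cells switch on when the ERK kinases are active, and whose products mostly restrain that same pathway, were followed in Huh-7 cells kept in amiloride. The 10 ERK feedback genes were DUSP4, DUSP5, DUSP6, SPRY2, SPRY4, SPRED1, SPRED2, ETV4, ETV5 and PHLDA1, out of 18732 genes measured. They were chosen by name for their known role, but with earlier results of these data known. A gene was read through every probe set that carried its symbol and no other, which gave 140 probe sets of 356331. Growth factor receptors pass a signal through RAS, RAF and MEK to ERK, and active ERK raises the transcripts of these genes within hours. The DUSP phosphatases then remove phosphate from ERK and related kinases, and the Sprouty (SPRY) and SPRED proteins act higher up, on receptors, RAS and RAF. ETV4 and ETV5 are transcription factors of the ETS family, and the transcripts of all these genes are widely used as readouts of the pathway in tumor cells, hepatocellular carcinoma included.

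Huh-7 is an established human hepatocellular carcinoma line, and amiloride is a potassium-sparing diuretic whose targets include the epithelial sodium channel and the sodium-hydrogen exchangers. RNA was taken from 3 cultures given 0.5 mM amiloride for 24 h and from 3 untreated cultures, which the labels call biological replicates. It was read on 6 Human Exon 1.0 ST arrays, 1 per culture, on which each transcript is covered by many probe sets along its length. Amiloride was dissolved in DMSO, and the labels do not say whether the untreated cells received that solvent. All values come from 1 line, 1 dose and 1 time. In RNA of whole cultures, fewer cells with a transcript and less of that transcript per cell cannot be told apart. A fixed amount of total RNA was labelled, so the number of cells is not read. All 11 hepatocyte markers measured lay above the median gene on all 6 arrays, whereas 0 of the 5 fibroblast, 3 leukocyte and 3 endothelial markers did. The fibroblast markers COL1A1 and COL1A2 lay above it on some arrays, by up to 0.84 and 1.62 log2 units. The mean of the hepatocyte markers was 4.81 to 4.96 log2 units above the median gene of the array under amiloride and 4.54 to 5.36 above it in untreated cells.

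Each deposited value is a linear intensity, set to 1 where it was lower and then taken to log2, and the level of a gene is the median over its probe sets. The arrays were not on one scale, although the paper describes normalization of the values. Median intensities were 4.71 to 12 under amiloride and 5.08 to 13.1 in untreated cells, with the brightest array of each group carrying replicate number 1. Each level is therefore given as deposited and also after removal of the array's median over all genes, called centred below. Untreated replicate 1 stood apart, with gene levels that correlated with those of the other arrays at r = 0.793 to 0.842, against 0.9 to 0.963 among the other 5 (Pearson's r over all genes of an array, a description and not a test). Values of the members are given with and without it. Levels were tested with limma over all genes, two-sided, and the standard error of every difference as deposited was 0.66 on the log2 scale. With 3 arrays per group the smallest p that exact permutation allows is 0.1, so single genes were not tested that way.

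None of the 10 genes passed an adjusted p under 0.05 with limma, as deposited or centred, so no rise or fall of a member was established. As deposited, 8 of the 10 had a higher and 2 a lower mean under amiloride, against 53.7% of all genes higher and 46.3% lower. Centred, the same 8 were higher, against 44.7% of all genes higher and 55.3% lower. The median log2 fold change of the 10 genes was 0.535, against 0.038 over all genes, and it was 0.438 against -0.058 when centred. As the genes were chosen with earlier results of these data known, these contrasts describe the list and do not test it. ETV4 alone had 3 amiloride levels above all 3 untreated levels as deposited, and DUSP4 and SPRED1 had when centred. Such a separation was found in 6.25% of all genes as deposited and in 10.2% when centred, so 1 and 2 of the 10 genes lie close to the share in all genes. The opposite separation, with all amiloride levels lower, was found in 0 of the 10, against 0.507% of all genes as deposited and 8.17% when centred. As deposited, 0 of the 10 had an unadjusted p under 0.05, against 1.99% of all genes higher and 0.112% lower. Centred, DUSP4 and SPRED1 did, against 7.87% higher and 3.11% lower. Over all 18732 genes, 6 were called higher (0.032%) and 0 lower (0%) as deposited, and 2 (0.0107%) and 0 when centred.

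**Figure D1:**
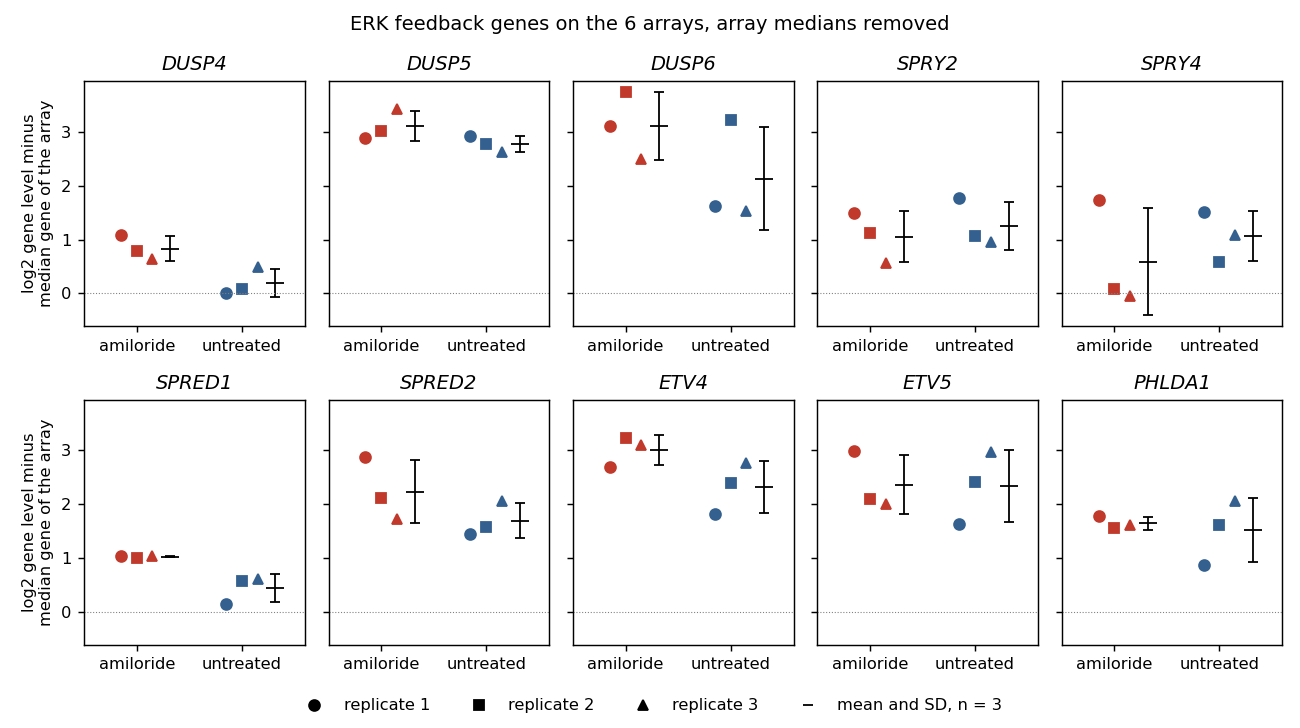
Level of each of the 10 ERK feedback genes on each array, in log2 units above the median gene of that array, with amiloride in red, untreated in blue, symbols for the replicate number and bars for the mean and SD of 3 arrays. The groups are apart for DUSP4 and SPRED1, where the amiloride arrays lie at 0.64 to 1.08 and 1.01 to 1.04 and the untreated arrays at 0.00 to 0.49 and 0.14 to 0.62, and they overlap for the other 8.

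Among the phosphatases, DUSP6 had the largest difference of the 10 genes as deposited. DUSP6 is a cytoplasmic phosphatase that acts on ERK in preference to other MAP kinases and is induced by ERK itself. Its level was 8.01, 7.21 and 6.21 log2 units on amiloride replicates 1, 2 and 3, against 6.31, 6.61 and 5.26 on untreated replicates 1, 2 and 3. Amiloride replicate 3 lay below both untreated replicates 1 and 2, so the groups overlapped. Between arrays of the same replicate number, DUSP6 was higher under amiloride by 1.70, 0.60 and 0.94 for replicates 1, 2 and 3. Means were 7.14 ± 0.90 under amiloride and 6.06 ± 0.71 in untreated cells (SD, n = 3 each), a log2 fold change of 1.08 (95% interval -0.21 to 2.37) or 2.11-fold, with an adjusted p of 1 in limma. Centred, DUSP6 stood at 3.11, 3.74 and 2.49 under amiloride and at 1.62, 3.23 and 1.54 in untreated cells. Here untreated replicate 2 was the high one of its group and lay above 2 of the 3 amiloride arrays. The centred log2 fold change was 0.98 (95% interval -0.11 to 2.08, adjusted p = 0.486 with limma), and 0.73 without untreated replicate 1. As deposited it was 0.68 without untreated replicate 3, where ETV4 had 0.90, and 0.46 with the mean over probe sets in place of the median, where DUSP4, SPRED1, ETV4 and SPRED2 had 0.70, 0.61, 0.58 and 0.52, so the rank of DUSP6 did not hold.

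DUSP4, a phosphatase of the nucleus that acts on ERK, JNK and p38, had levels of 5.98, 4.25 and 4.36 under amiloride and of 4.70, 3.47 and 4.22 in untreated cells. The groups overlapped as deposited because untreated replicate 1, a bright array, lay above amiloride replicates 2 and 3. Centred, the levels were 1.08, 0.78 and 0.64 under amiloride and 0.00, 0.09 and 0.49 in untreated cells, with no overlap. Its log2 fold change was 0.74 (95% interval -0.56 to 2.03) as deposited and 0.64 (0.05 to 1.23) when centred, with adjusted p = 0.425 in limma. Without untreated replicate 1 the centred value was 0.54.

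DUSP5 is a nuclear phosphatase with a strong preference for ERK. Its levels of 7.79, 6.49 and 7.15 under amiloride and of 7.62, 6.15 and 6.36 in untreated cells overlapped, with replicate 1 the brightest in both groups. Centred, they were 2.89, 3.01 and 3.43 under amiloride and 2.92, 2.77 and 2.63 in untreated cells, and only amiloride replicate 1 fell within the untreated range. DUSP5 thus differed by 0.43 on the log2 scale (95% interval -0.86 to 1.72) as deposited and 0.34 (-0.24 to 0.91) when centred, with limma's adjusted p at 1 and 0.632. Without untreated replicate 1 the centred value was 0.41.

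Among the 6 members whose promoters could be searched, short matches to a CIC or ETS motif lay just ahead of the start sites of DUSP6 and PHLDA1. In the RefSeq gene table of GRCh38.p14, promoters of 6 of the 10 genes were matched (DUSP6, SPRY2, SPRY4, SPRED1, SPRED2 and PHLDA1), and the 250 bases before each start were searched on both strands. The octamer of CIC, a repressor that ERK signalling removes from its targets, was spelled TGAATGAA, TGAATGGA, TCAATGAA or TCAATGGA, and the core of ETS factors CGGAAG. DUSP6 lies on chromosome 12 from 89347235 to 89352501 and PHLDA1 on the same chromosome from 76025447 to 76031776, both on the minus strand. The DUSP6 stretch at chr12:89352512-89352571, from 70 to 11 bases before the start, and the PHLDA1 stretch at chr12:76031807-76031836, from 60 to 31 bases before it, are shown 5′ to 3′ with the motifs in capitals, because they hold the only matches among the 6 genes.
DUSP6: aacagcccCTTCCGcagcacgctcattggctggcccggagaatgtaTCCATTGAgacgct
PHLDA1: aggggaacgagcgCGGAAGcaagtgggcgg
In DUSP6 both motifs read on the opposite strand, CTTCCG for the ETS core and TCCATTGA for the CIC octamer. The octamer was found in 3.18% of 35116 promoter windows and in 1 of the 9 windows of these 6 genes. The ETS core was in 16.5% of windows and in 2 of the 9. The AP-1 motif TGANTCA (6.57% of windows) and the cAMP response element TGACGTCA (1.65%) were in 0 of the 9. A match describes these letters only, and no binding was measured.

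The Sprouty genes were the 2 members with a lower mean under amiloride. SPRY2 and SPRY4 encode inhibitors that sit at the plasma membrane and dampen signalling from receptor tyrosine kinases. SPRY2 had levels of 6.40, 4.59 and 4.27 under amiloride and of 6.47, 4.45 and 4.67 in untreated cells, almost the same spread in both groups. Its log2 fold change was -0.11 (95% interval -1.40 to 1.18) as deposited and -0.21 (-0.96 to 0.55) when centred. SPRY4 had levels of 6.63, 3.57 and 3.67 under amiloride and of 6.21, 3.97 and 4.82 in untreated cells. Amiloride replicate 1 held the highest of these levels and amiloride replicates 2 and 3 the lowest, so that the groups overlapped. The log2 fold change of SPRY4 was -0.38 (95% interval -1.67 to 0.91) as deposited and -0.47 (-1.53 to 0.58) when centred. Without untreated replicate 1 the centred values were 0.05 for SPRY2 and -0.25 for SPRY4. As deposited, both signs turned with any of 3 arrays left out, at 0.53 for SPRY2 and 0.23 for SPRY4 without untreated replicate 1, 0.14 and 0.15 without amiloride replicate 2, and 0.30 and 0.10 without amiloride replicate 3. Leaving out an array as deposited also moves the differences of genes in general, because the arrays differed in brightness. Centred, SPRY4 stayed lower in all 6 such omissions (-1.04 to -0.15), and SPRY2 turned to 0.04 without amiloride replicate 3.

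The SPRED genes, whose products bind neurofibromin and bring it to RAS at the membrane, both had higher means under amiloride, a direction that for SPRED2 rested on 1 array as deposited. SPRED1 was at 5.94, 4.48 and 4.76 under amiloride and at 4.83, 3.95 and 4.34 in untreated cells. Once centred it gave the tightest group of all 10 genes, with 1.03, 1.01 and 1.04 under amiloride, against 0.14, 0.57 and 0.62 in untreated cells. The centred groups did not overlap, and untreated replicate 1 was the lowest array. SPRED1 differed by 0.68 (95% interval -0.61 to 1.97) as deposited and by 0.59 (0.03 to 1.14) when centred, with adjusted p = 0.437 in limma for the centred value, which was 0.43 without untreated replicate 1. SPRED2 was at 7.77, 5.58 and 5.44 under amiloride and at 6.14, 4.96 and 5.78 in untreated cells, with untreated replicates 1 and 3 inside the amiloride range. Centred, SPRED2 differed by 0.54 (95% interval -0.22 to 1.30, limma's adjusted p = 0.573, and 0.42 without untreated replicate 1), and amiloride replicate 1, at 2.87, was the highest array. Without amiloride replicate 1 the log2 fold change of SPRED2 was -0.12 as deposited, against 0.64 with all arrays, and 0.22 when centred.

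The pair of ETS factors, ETV4 and ETV5, are close relatives. Both belong to the PEA3 subfamily, are repressed by CIC and drive transcription of further ERK targets. ETV4 was at 7.60, 6.71 and 6.82 under amiloride and at 6.50, 5.78 and 6.49 in untreated cells. All 3 amiloride levels lay above all 3 untreated levels, the closest at 6.71 under amiloride and 6.50 in untreated cells. Means were 7.04 ± 0.49 under amiloride and 6.26 ± 0.42 in untreated cells (SD, n = 3 each), a log2 fold change of 0.78 (95% interval -0.51 to 2.07, limma's adjusted p = 1) or 1.72-fold. Centred, ETV4 was at 2.69, 3.23 and 3.10 under amiloride and at 1.81, 2.40 and 2.76 in untreated cells. The separation was lost by a small margin, at 2.69 on amiloride replicate 1 and 2.76 on untreated replicate 3. The centred log2 fold change was 0.69 (-0.01 to 1.38, adjusted p = 0.461), and 0.43 without untreated replicate 1.

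ETV5 was at 7.90, 5.56 and 5.72 under amiloride and at 6.32, 5.79 and 6.69 in untreated cells. Its highest level was on amiloride replicate 1, and amiloride replicates 2 and 3 were the 2 lowest. Its log2 fold change was 0.12 (95% interval -1.17 to 1.42) as deposited, 0.03 (-0.87 to 0.92) when centred and -0.33 when centred without untreated replicate 1, so no direction held. As deposited it was -0.63 without amiloride replicate 1 and -0.12 without untreated replicate 2. Whether ETV4 and ETV5 differed from each other in their change was not tested.

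PHLDA1, a protein with a pleckstrin homology-like domain whose transcript is a common readout of MEK inhibition, was at 6.68, 5.02 and 5.33 under amiloride and at 5.57, 4.99 and 5.80 in untreated cells. The groups overlapped, with untreated replicates 1 and 3 above amiloride replicates 2 and 3. Centred, the amiloride arrays were close together at 1.78, 1.55 and 1.61, inside the wider untreated range of 0.88, 1.61 and 2.07. The log2 fold change was 0.22 (95% interval -1.07 to 1.51) as deposited, 0.13 (-0.60 to 0.85) when centred and -0.20 when centred without untreated replicate 1. As deposited it was -0.28 without amiloride replicate 1 and -0.01 without untreated replicate 2.

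**Figure D2:**
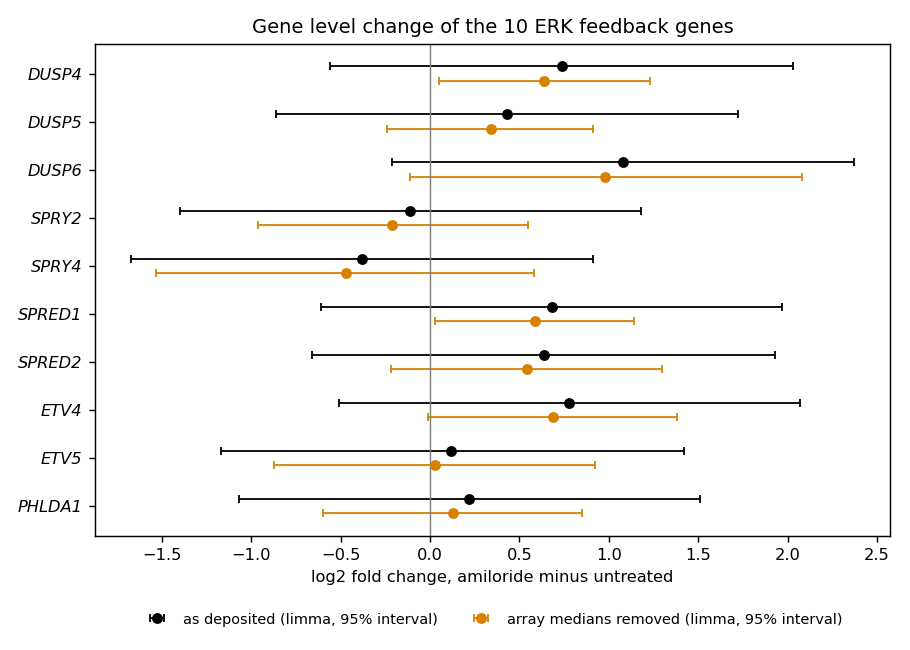
Log2 fold change of each ERK feedback gene, amiloride minus untreated, as a point with limma's 95% interval, from the values as deposited (black) and with the array medians removed (orange). All 10 intervals as deposited cross 0, and with the array medians removed those of DUSP4 (0.05 to 1.23) and SPRED1 (0.03 to 1.14) do not.

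Over the 10 genes together, the centred median was 2.23, 1.82 and 1.67 on amiloride replicates 1, 2 and 3 and 1.57, 1.60 and 1.80 on the untreated ones. Amiloride replicate 3 thus fell within the untreated range, and amiloride replicate 1 was the highest array. Without amiloride replicate 1 the median log2 fold change of the 10 genes was 0.00 as deposited, without untreated replicate 2 it was 0.23 and without untreated replicate 1 it was 0.89. Centred, it was 0.34, 0.41 and 0.41 with these arrays left out, and from 0.34 to 0.54 over all 6 such omissions. After quantile normalization DUSP4, DUSP5, SPRED1 and ETV4 had no overlap between groups, 4 of the 10 genes against 15.1% of all genes, while 0 were lower without overlap, against 3.66%. The smallest adjusted p among the 10 was 0.276 with limma.

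Most of the single probe sets, whose medians are the gene levels above, were higher under amiloride, so this is not separate evidence. Of the 140 probe sets, 132 were at or above the median brightness of all probe sets on the array. As deposited, 92 of the 140 had a higher mean under amiloride and 48 a lower one, against 52.8% higher and 47.1% lower among all probe sets. The groups did not overlap in 16, all of them higher under amiloride, against 5.12% higher and 1.45% lower among all probe sets. Centred, 18 were higher and 9 lower without overlap, against 7.23% and 6.87%. None of the 140 passed an adjusted p under 0.05 with limma, whereas over all probe sets 0.00814% were called higher and 0.00814% lower. At an unadjusted p under 0.05 there was 1, against 1.98% higher and 0.683% lower. Probe sets of 1 gene share its transcript and are not replicates.

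The probe sets of some genes were more uniform than those of others. SPRED1 had 15 of 18 probe sets higher under amiloride, SPRED2 had 20 of 25 and ETV4 had 13 of 16. ETV4 also had the most probe sets that were higher without overlap, 5 as deposited and 5 when centred, and SPRED1 had 4 and 3. DUSP5 had 7 of 10 higher and DUSP4 9 of 12, with fold changes of DUSP4 spread from -0.43 to 2.21 on the log2 scale. In contrast, SPRY2 had 1 of 9 probe sets higher and SPRY4 had 2 of 8, and their gene levels are the medians of these same probe sets. ETV5 had 12 of 18 higher, none without overlap, and PHLDA1 was split almost evenly, with 8 of 17 higher.

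**Figure D3:**
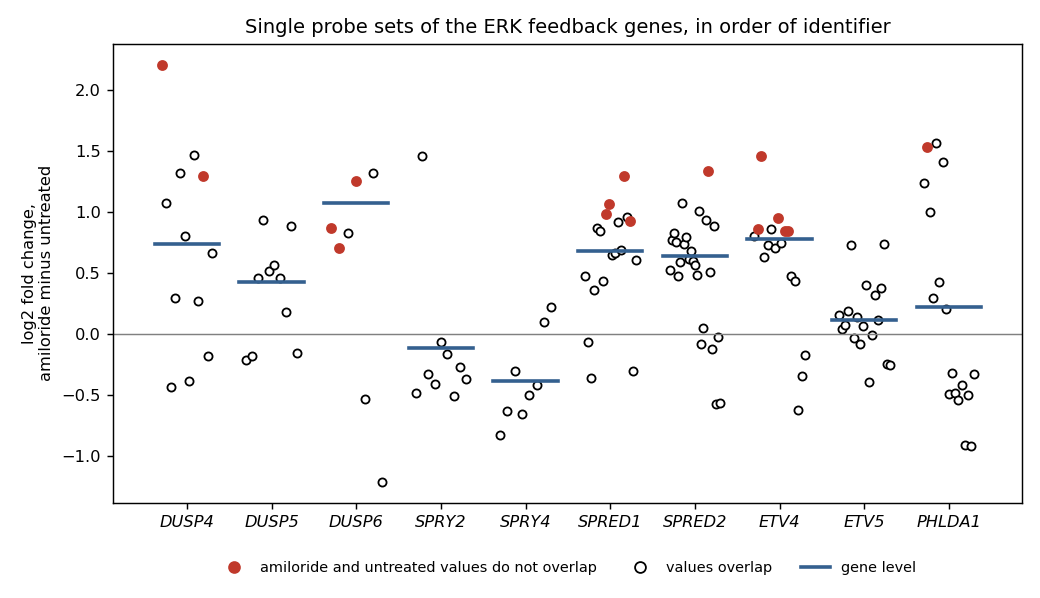
Log2 fold change of each of the 140 probe sets as deposited, amiloride minus untreated, by gene and in order of probe set identifier, with red points where the groups do not overlap and a blue line at the change of the gene level. The 16 red points all lie above 0, most of the points of SPRY2 and SPRY4 lie below it, and those of PHLDA1 form a group above 0 followed by one below it.

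Probe set 3129733 of DUSP4 showed the largest difference without overlap among all 140. It read 6.53, 4.74 and 5.51 log2 units under amiloride and 3.12, 2.94 and 4.07 in untreated cells. Every amiloride array lay above every untreated one, by a log2 fold change of 2.21 (standard error 0.82, adjusted p = 1 with limma). Its splicing index was also apart, that is, its distance in log2 units from the level of DUSP4 on the same array. This index was 0.54, 0.49 and 1.15 under amiloride and -1.57, -0.53 and -0.15 in untreated cells. The difference in splicing index was 1.48 (standard error 0.45), and 1.07 without untreated replicate 1. Probe set 3129735 of DUSP4 ran the other way, with an index lower under amiloride without overlap, by -1.17 (standard error 0.35). The log2 fold change of probe set 3129733 without untreated replicate 1 was 2.09.

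The corresponding probe sets of 3 other genes differed in how far they rested on single arrays. Probe set 3589180 of SPRED1 read 6.30, 5.24 and 4.71 under amiloride and 3.93, 4.41 and 4.0 in untreated cells, a log2 fold change of 1.30 that was 1.21 without untreated replicate 1. Probe set 3758513 of ETV4 read 7.51, 6.55 and 6.73 under amiloride and 3.77, 6.23 and 6.44 in untreated cells. Untreated replicate 1 was far below all other arrays there, and the log2 fold change of 1.46 was 0.60 without it. Probe set 2556801 of SPRED2 was near the floor, at 2.10, 0.26 and 1.84 under amiloride and 0.00, 0.17 and 0.00 in untreated cells, and its log2 fold change of 1.34 was 0.15 with 16 added to every intensity.

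In DUSP6 the probe sets differed in opposite directions. Probe set 3464880 was higher under amiloride without overlap, at 7.68, 6.63 and 6.07 against 5.80, 5.53 and 5.26 in untreated cells, and its splicing index differed by only 0.18. Probe set 3464883 was dim, at 3.14, 1.62 and 1.43 under amiloride and 4.23, 3.40 and 2.20 in untreated cells, and thus ran against its gene. Its splicing index was -4.87, -5.59 and -4.78 under amiloride and -2.09, -3.21 and -3.06 in untreated cells, with no overlap. This difference of -2.29 (standard error 0.43) had the smallest p of all members' splicing indices, 0.000783, with an adjusted p of 0.957 by limma, and it was -1.94 without untreated replicate 1. Averaged over the arrays it was dimmer than the median probe set, so a low signal enters this index. Whether probe sets 3464880 and 3464883 read the same transcripts was not examined here.

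Over the splicing indices of all 140 probe sets, 8 had an unadjusted p under 0.05 and 0 an adjusted one with limma, against 1.74% of all indices higher and 3% lower at the unadjusted threshold and 0% called in either direction. The index was higher under amiloride without overlap in 6 and lower in 13, against 4.67% and 6.1% of all indices. The lower ones were 3 each in DUSP4 and PHLDA1, 2 each in DUSP6 and ETV4 and 1 each in SPRED1, SPRED2 and ETV5. For probe set 3758529 of ETV4 the index was 0.90, 1.11 and 1.44 under amiloride and 3.68, 2.13 and 1.85 in untreated cells. This difference of -1.40 (standard error 0.51) was -0.84 without untreated replicate 1. For probe set 3589145 of SPRED1 the index was -0.36, -0.23 and -0.59 under amiloride and 1.11, 0.74 and 0.08 in untreated cells, a difference of -1.04 (standard error 0.37) that was -0.81 without that array. In both, untreated replicate 1 was the highest array. The differences with the smallest p in the other genes were 1.01 in PHLDA1, -0.75 in SPRED2, -0.64 in DUSP5, 0.61 in ETV5, 0.60 in SPRY4 and 1.57 in SPRY2, the last with a standard error of 1.32.

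The probe sets of PHLDA1 fell into a pair of blocks by identifier, a split made after their values were seen and given without a test. In the 8 probe sets from 3462825 to 3462832, all 8 were higher under amiloride, with a median log2 fold change of 1.12, or 1.02 when centred. In the 9 from 3462834 to 3462842, 0 were higher, with a median of -0.49, or -0.59 when centred. The median of the first block was 6.68, 4.95 and 5.42 under amiloride and 4.71, 4.95 and 5.71 in untreated cells. Untreated replicate 1, otherwise a bright array, was the lowest of the 6 there. The median of the second block was 6.68, 5.02 and 5.33 under amiloride and 7.03, 5.69 and 5.80 in untreated cells, with untreated replicate 1 the highest of the 6. Without that array the centred median of the first block was -0.10 and that of the second -0.57, while as deposited 7 of the 8 probe sets of the first block and 3 of the 9 of the second were higher under amiloride. Probe set 3462826, the one of PHLDA1 without overlap, read 5.56, 5.35 and 5.09 under amiloride and 1.73, 5.08 and 4.58 in untreated cells, and its log2 fold change of 1.54 was 0.50 without untreated replicate 1.

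**Figure D4:**
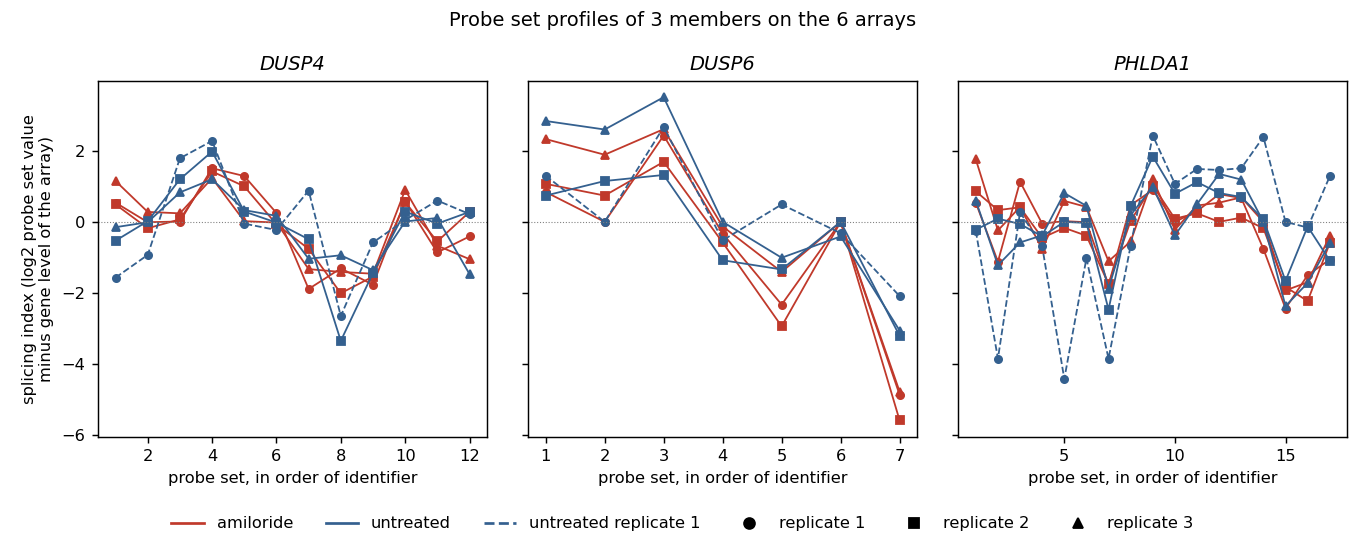
Splicing index of each probe set of DUSP4, DUSP6 and PHLDA1 on each array, in order of probe set identifier, with amiloride in red, untreated in blue and untreated replicate 1 dashed. The last probe set of DUSP6 lies at -5.59 to -4.78 on the amiloride arrays and at -3.21 to -2.09 on the untreated ones, and in PHLDA1 the dashed line runs low over the first probe sets and high over the later ones.

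Such a tilt along the transcript was a feature of untreated replicate 1 over many genes. Indices were averaged over the first and over the last of 3 equal stretches of a gene's identifiers, here called low and high, for all members and for genes with at least 9 probe sets. Those of untreated replicate 1, taken against the other 5 arrays, were higher at the low identifiers of 5207 genes on the plus strand (0.22 in the median, against -0.12 at the high identifiers) and at the high identifiers of 5125 genes on the minus strand (0.20, against -0.13 at the low ones). Among the members it was -1.87 at the low and 1.59 at the high identifiers of PHLDA1, -0.77 and 1.42 in DUSP6, and 1.01 and -0.57 in DUSP5. In the other 7 members it ran from -1.78 to 0.49 at the low and from -0.18 to 1.06 at the high identifiers. The part of this tilt in the values of single probe sets was not tested beyond the values without that array.

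The rest of the pathway gave the setting for these genes. In 6 further lists, with 10, 13, 7, 8, 10 and 12 genes measured, 0 genes passed an adjusted p under 0.05 with limma. As deposited, 2 (SOS1 and DUSP10, both higher) had an unadjusted p under 0.05 with limma, against 1.99% of all genes higher and 0.112% lower. Centred, SOS1, SOS2, DUSP10, SPRY1 and ETV1 (higher) and EPHA2 and LIF (lower) did, against 7.87% higher and 3.11% lower. Over the measured genes of the 6 lists, these centred counts lie close to the shares in all genes. The counts of each list below stand beside 53.7% of all genes higher and 46.3% lower as deposited. Differences that round to 0.00 were counted in neither direction in the lists. Of 10 growth factor receptors, 6 had a higher and 4 a lower mean under amiloride, with a median log2 fold change of 0.087 and all values between -0.30 and 0.27. Of 13 measured members of the RAS to ERK cascade, 8 were higher and 5 lower, with a median of 0.264. SOS1, an exchange factor that loads RAS with GTP, was at 7.09, 4.91 and 4.88 under amiloride and at 3.91, 3.60 and 4.54 in untreated cells, without overlap. Its log2 fold change was 1.61, with an adjusted p of 1 in limma. SOS2, its close relative, was at 6.34, 4.69 and 4.57 under amiloride and at 3.94, 3.93 and 4.53 in untreated cells, without overlap and by 1.07. Centred, SOS2 differed by 0.97, and by 0.49 without untreated replicate 1. Without amiloride replicate 1 the values as deposited were 0.88 for SOS1 and 0.50 for SOS2.

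Among 7 other MAP kinase phosphatases, 5 had a higher and 1 a lower mean, with a median log2 fold change of 0.433, and DUSP10 had the largest difference of any gene on the lists. DUSP10 acts mainly on JNK and p38, which sets it apart from DUSP6 and DUSP5. It was at 7.82, 5.03 and 4.73 under amiloride and at 3.88, 3.25 and 3.41 in untreated cells, without overlap. DUSP10 differed by 2.35 on the log2 scale (adjusted p = 0.682 with limma), 2.05 when centred without untreated replicate 1, 1.37 as deposited without amiloride replicate 1 and 1.52 with 16 added to every intensity. SPRY1, of the same family as SPRY2 and SPRY4, was at 8.24, 5.32 and 5.44 under amiloride and at 5.84, 4.71 and 5.07 in untreated cells, with overlap. Its log2 fold change of 1.13 came from a list of 8 measured inhibitors with 4 higher, 3 lower and a median of 0.219, and it was 0.17 without amiloride replicate 1. Whether SPRY1 differed from SPRY2 or SPRY4 was not tested.

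Of 10 ETS factors and other regulators of the members, 6 were higher and 3 lower, with a median log2 fold change of 0.038, the same as over all genes. ETV1, the third of the PEA3 subfamily, was at 6.23, 3.92 and 3.72 under amiloride and at 3.95, 3.45 and 3.31 in untreated cells, by 1.05 with overlap, and by 0.25 without amiloride replicate 1. Of 12 other transcripts that follow ERK activity, immediate early and delayed targets, 3 had a higher and 8 a lower mean under amiloride, with a median log2 fold change of -0.082 as deposited and -0.179 when centred. EPHA2, a receptor tyrosine kinase induced by ERK, was at 5.83, 4.39 and 4.34 under amiloride and at 6.47, 4.87 and 5.32 in untreated cells. It differed by -0.70 as deposited with overlap, whereas centred it was at 0.92, 0.92 and 0.62 under amiloride and at 1.78, 1.49 and 1.59 in untreated cells, without overlap. LIF, a cytokine of the interleukin-6 family, was at 3.16, 1.87 and 3.17 under amiloride and at 4.45, 2.89 and 3.24 in untreated cells, by -0.79. EPHA2 and LIF had an adjusted p of 1 with limma as deposited, and without untreated replicate 1 they differed by -0.24 and -0.33 as deposited and by -0.72 and -0.81 when centred. The lists were not tested against each other or against all genes.

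**Figure D5:**
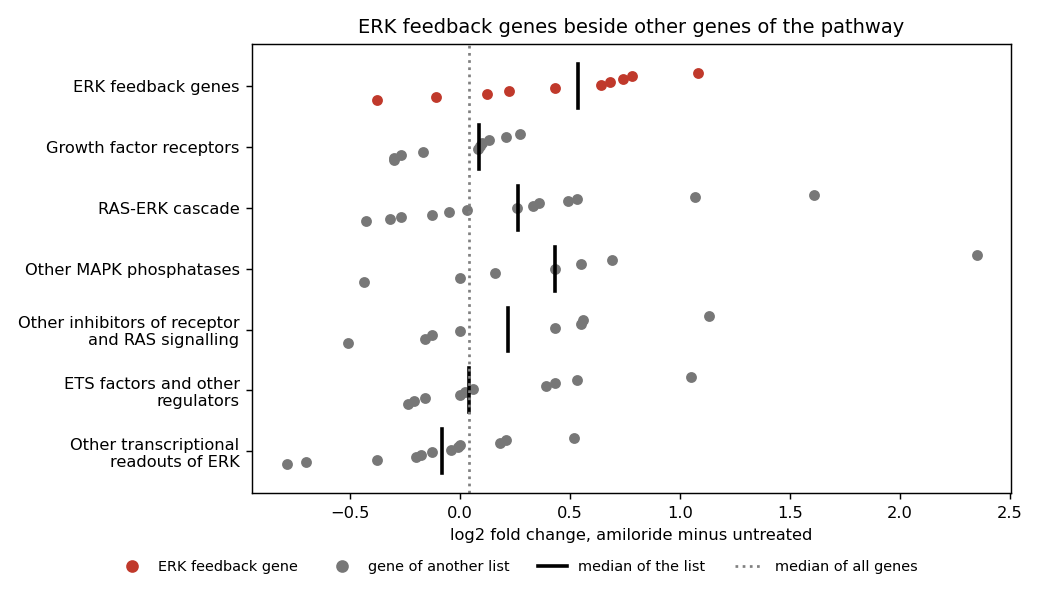
Log2 fold change of each gene as deposited, amiloride minus untreated, for the 10 ERK feedback genes (red) and for 6 lists of other genes of the pathway (grey), with black bars for list medians and a dotted line for the median of all genes. The median of the ERK feedback genes is 0.535, those of the other lists run from -0.082 to 0.433, and the median of all genes is 0.038.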

How the data were processed

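Total RNA of 6 Huh-7 cultures was read on exon arrays. The authors scanned them, corrected bias with the background probes and normalized the probe set values in dChip. The deposited values are linear intensities, 1 per probe set and array, whose medians differed between arrays as given above. Intensities under 1 were set to 1 and taken to log2. Of 1408285 probe sets, 357582 had a single symbol in the platform annotation and 15322 had several, of which 0 named a member. No symbol was listed for the other 1035381. Gene levels were medians over at least 3 single-symbol probe sets, for 18732 of 19560 symbols. Exon positions were not used here. The number of arrays limits the precision.

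The splicing index was the log2 value less the gene level of the array. Separate fits of gene levels, probe sets and indices were made with limma 3.58.1 (lmFit, eBayes) in R 4.3.3 with data.table (version 1.17.8), amiloride against untreated with all 6 arrays and no block, two-sided, with Benjamini-Hochberg adjustment over all features and a threshold of 0.05. As deposited, the moderated variance was the same for every gene, hence the shared standard error. The labels call the arrays biological replicates. P-values and intervals as deposited rest on 1 variance pooled over all genes, and not on the spread of the single gene between replicates. That variance includes the differences in brightness between arrays of a group. Centred, the standard error differed by gene, from 0.23 to 1.34. The fits were tested on simulated data. Alternatives were quantile normalization, median centring, the replicate number as a block, 16 added before log2, a floor of 4, only bright probe sets or genes (mean log2 from 2.796 up, which is the median probe set), the mean over probe sets and leaving out each array. Centring together with leaving out each array was added after the data were seen.

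The members and lists were chosen with earlier results of these data known. Named were all members, per member the probe set with the largest fold change without overlap and the one with the smallest p for the splicing index, and at most 4 genes of each other list with the smallest p.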

Additional observations from a re-analysis of the deposited data

How the results depend on the processing

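Under every alternative run, 0 of the 10 ERK feedback genes and 0 genes of the other lists passed the threshold. Over all genes, 6 passed as deposited, 2 after quantile normalization, 2 after median centring, 0 with 16 added before log2, 0 with a floor of 4, 2 with bright probe sets only, 1 with the mean over probe sets and 1 to 6 with an array left out. With centring and an array left out, an alternative chosen after seeing the data, 0 to 4 passed (1 without amiloride replicate 1, and 0 without amiloride replicate 2, amiloride replicate 3, untreated replicate 2 or untreated replicate 3). With the replicate number as a block, 0 genes passed, 3 with the block and quantile normalization and 0 with the block and centring. Arrays of the same number deviated together at r = 0.162, 0.098 and 0.187 across genes, and 5 of the 6 correlated best with their own number. These values of r do not register a shift in brightness that all genes of an array share. Median gene levels of arrays with the same number were also close, at 4.9 and 4.7, 3.47 and 3.38, and 3.72 and 3.73. Since 1 value of r is under 0.1, the numbers were not taken to pair the arrays in the main fits. That choice does not show that the arrays were unpaired. Between arrays of the same number, 5 of the 10 members were higher under amiloride in all 3 comparisons as deposited, and 4 were when centred. Lower in all 3 were 0, both as deposited and centred. The share of all genes with such a pattern was not counted, so these counts have no background to be judged by. The smallest adjusted p among the 10 genes with the replicate block was 0.202 with limma. Intervals from that fit, not adjusted for the number of genes, lay above 0 for DUSP6 (0.40 to 1.76) and ETV4 (0.15 to 1.41). So did those of SPRED1 (0.07 to 1.30) and DUSP4 (0.05 to 1.43), while those of the remaining members crossed 0. With the block and centring, DUSP6 (0.33 to 1.64) and ETV4 (0.08 to 1.29) stayed above 0, and DUSP4 and SPRED1 did not. With the block, the median standard error over all genes as deposited was 0.27, against 0.66 without it, so intervals were narrower for genes in general. The share of all genes with an interval above 0 is not given here, and these intervals do not set the members apart from other genes.

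Outside the fits that leave out an array, all 10 genes kept their direction, from 0.46 to 1.16 for DUSP6 and from -0.47 to -0.16 for SPRY4. Signs turned when an array was left out: without amiloride replicate 1 for SPRED2 (-0.12), ETV5 (-0.63) and PHLDA1 (-0.28), without amiloride replicate 2 for SPRY2 (0.14) and SPRY4 (0.15), without amiloride replicate 3 for SPRY2 (0.30) and SPRY4 (0.10), without untreated replicate 1 for SPRY2 (0.53) and SPRY4 (0.23), and without untreated replicate 2 for ETV5 (-0.12) and PHLDA1 (-0.01). Centred, they turned without amiloride replicate 1 for ETV5 (-0.29), without amiloride replicate 3 for SPRY2 (0.04), and without untreated replicate 1 for SPRY2 (0.05), ETV5 (-0.33) and PHLDA1 (-0.20). With an array left out, values ran from -0.76 to 0.53 for SPRY2, -1.38 to 0.23 for SPRY4, -0.12 to 1.05 for SPRED2, -0.63 to 0.54 for ETV5 and -0.28 to 0.55 for PHLDA1. These ranges are as deposited, where the median gene level was 4.9, 3.47 and 3.72 on amiloride replicates 1, 2 and 3. It was 4.7, 3.38 and 3.73 on the untreated ones, so an omission also moves the differences of genes in general. How far this enters the turns was not tested. The median of the 10 genes ran from 0.00 to 0.89 as deposited with an array left out. Of the 140 probe sets, 8 lie below the median brightness.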
